A study of Mus musculus with 14 samples.

Results

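The 31 genes described here encode enzymes of cholesterol synthesis, the proteins that control sterol regulatory element-binding protein 2 (SREBP2), and proteins that move or store cholesterol. They were taken by gene symbol, as the rows carrying those symbols in both deposited tables, and all 31 were found among 55291 symbols. Ordered by role, 8 belong to the mevalonate pathway (Acat2, Hmgcs1, Mvk, Pmvk, Mvd, Idi1, Fdps, Ggps1), 3 lead from farnesyl diphosphate to lanosterol (Fdft1, Sqle, Lss) and 9 lead from lanosterol to cholesterol (Cyp51, Tm7sf2, Lbr, Msmo1, Nsdhl, Hsd17b7, Ebp, Sc5d, Dhcr7). These 20 are called the enzymes below. A further 6 control SREBP2 (Insig1, Insig2, Srebf2, Scap, Mbtps1, Mbtps2) and 5 act in sterol transport and storage (Stard4, Npc1, Npc2, Soat1, Osbp).

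Messenger RNA was sequenced from mouse T cells in 2 experiments, 14 libraries in all. In the first, splenocytes of OT-1 mice, a strain whose CD8+ T cells carry a transgenic receptor for an ovalbumin peptide, were given 1 µg/mL of that peptide and 200 U/mL of interleukin-2, activated for 3 days and expanded for 4 more. The treated group (n = 4) had ND-646 at 100 nM, which blocks acetyl-CoA carboxylase, the enzyme that makes malonyl-CoA from acetyl-CoA, and the control group (n = 4) had the vehicle, DMSO. All 8 of these cultures therefore shared the genotype, labelled WT, and the peptide and interleukin-2. Whole splenocytes were cultured, although the label names the cell type as CD8+ T cells. In the second experiment CD8+ T cells were enriched and sorted from spleens (n = 3) and from MCA205 fibrosarcomas (n = 3), a transplanted sarcoma line grown under the skin of C57BL/6 mice for 14 days, also labelled WT. The spleen samples are recorded with the same 14 days of tumour growth, so they are not taken here as a tumour-free baseline. The tumour samples are described as pooled, with no statement of what was pooled, and the age of the animals was not given. The labels do not state whether replicate libraries are different animals or different cultures. Each p-value therefore reflects only library-to-library spread, which may be technical.

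Cholesterol is built from acetyl-CoA. Cytosolic thiolase and HMG-CoA synthase start the mevalonate pathway, mevalonate is turned into isoprenyl diphosphates, a pair of farnesyl units is joined into squalene, squalene is closed into lanosterol, and lanosterol is trimmed to cholesterol. SREBP2, made from Srebf2, is held in the endoplasmic reticulum by SCAP and an INSIG protein when sterols are plentiful. When sterols are scarce, SCAP carries SREBP2 to the Golgi, where the site-1 and site-2 proteases (Mbtps1, Mbtps2) free its DNA-binding part, which switches on most genes of the pathway. Activated, dividing T cells are known to raise this programme to build membranes.

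SREBP2 binds DNA at sterol regulatory elements and works beside the CCAAT-binding factor NF-Y. The 250 bases before the start of 4 genes are therefore shown: Hmgcs1 and Idi1, with the largest fold decreases among the genes under ND-646, Cyp51, with the second largest fold increase in tumour, and Ggps1, which rose with ND-646 and, on the scale used for the tests, fell in tumour. They are from RefSeq, build GRCm38.p6, read 5′ to 3′ on the strand of the gene. Hmgcs1 is at chr13:119690101-119690350 on the plus strand, Idi1 at chr13:8885356-8885605 on the plus strand, Cyp51 at chr5:4104698-4104947 on the minus strand and Ggps1 at chr13:14063489-14063738 on the minus strand. Capitals mark a match to the sterol regulatory element TCACNCCAC or to CCAAT on either strand, so that ATTGG is CCAAT read on the other strand.
Hmgcs1: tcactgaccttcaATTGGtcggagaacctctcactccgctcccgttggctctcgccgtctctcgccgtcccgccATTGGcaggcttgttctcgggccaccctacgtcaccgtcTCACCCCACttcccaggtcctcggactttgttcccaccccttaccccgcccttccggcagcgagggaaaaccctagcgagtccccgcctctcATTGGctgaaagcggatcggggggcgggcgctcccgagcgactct
Idi1: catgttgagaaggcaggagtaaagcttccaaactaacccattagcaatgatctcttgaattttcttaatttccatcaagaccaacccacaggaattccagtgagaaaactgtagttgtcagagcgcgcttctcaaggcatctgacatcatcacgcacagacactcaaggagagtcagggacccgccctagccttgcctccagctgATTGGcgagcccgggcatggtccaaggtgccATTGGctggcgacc
Cyp51: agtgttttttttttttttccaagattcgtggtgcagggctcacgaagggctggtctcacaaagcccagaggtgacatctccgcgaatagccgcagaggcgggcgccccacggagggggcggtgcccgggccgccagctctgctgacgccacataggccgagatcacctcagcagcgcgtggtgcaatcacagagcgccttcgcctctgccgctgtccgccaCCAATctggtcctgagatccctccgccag
Ggps1: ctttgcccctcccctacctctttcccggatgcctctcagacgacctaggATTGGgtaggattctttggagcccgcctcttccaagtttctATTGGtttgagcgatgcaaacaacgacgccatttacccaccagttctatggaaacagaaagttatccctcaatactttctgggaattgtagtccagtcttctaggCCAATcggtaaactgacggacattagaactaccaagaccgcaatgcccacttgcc

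Promoters were found for 26 of the 31 genes, and Sqle, Fdps, Fdft1, Stard4 and Npc1 are named only. The element TCACNCCAC, searched on both strands, was present in 1 of the 26, Hmgcs1, where it began 137 bases before the start with the letters TCACCCCAC. Among all 32851 promoters of the table, cut to the same 250 bases, 1.05% held it. CCAAT was present in 22 of the 26 (84.6%), and in 33.8% of all promoters. Counted by gene symbol, the share was 37.5% of 27025 symbols. It was 40.6% of the 10190 symbols that also passed the filter on low counts in the ND-646 comparison. Among the 17 enzymes with a promoter, 16 held CCAAT (94.1%), Acat2 being the exception. Scap, Mbtps1 and Mbtps2 were the other members without it. Mvk and Osbp held CCAAT or its complement at 5 places, Hmgcs1, Ggps1, Msmo1, Hsd17b7 and Insig2 at 3, and Idi1 at 45 and 14 bases before the start. The motifs do not overlap each other in the sequences shown. A match is a description of letters and not of binding. Other forms of the sterol regulatory element than TCACNCCAC were not searched, so a promoter without a match may still hold one. Sites beyond this window were not searched either.

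Library totals were between 23.5 and 33.8 M counts (M, 1e+06) for the cultures and between 19.6 and 21.0 M for the sorted cells. Levels are given in CPM, counts scaled to 1e+06 per library, on library sizes adjusted by TMM, a method that aligns the bulk of genes between libraries. Errors on levels are SD over libraries, and errors on log2 fold changes are SE. A gene is said to have risen or fallen where edgeR's quasi-likelihood test gave an adjusted p under 0.05 over all genes tested. All 31 genes passed the filter on low counts in both experiments. CD8 T cell markers summed to between 6657 and 7379 CPM in the cultures and between 11622 and 11711 CPM in spleen, and to between 5178 and 6884 CPM in tumour. Fibroblast and fibrosarcoma markers summed to between 12404 and 17890 CPM in the tumour libraries, against 1.85 to 18.6 CPM in spleen.

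ND-646 cultures held less messenger RNA of most cholesterol synthesis enzymes than vehicle cultures. Of the 31 genes, 23 fell, 5 rose and 3 did not pass the test, while of all 14251 genes tested 56.3% passed, 29.8% as higher and 26.5% as lower. The median log2 fold change was -0.25 and the range -1.03 to 0.38, beside a median of 0.012 over all genes tested. Against a minimum change of 1.5-fold, 2 of the 31 passed, Hmgcs1 and Idi1. By role, 7 of 8 mevalonate genes, 3 of 3 genes from farnesyl diphosphate to lanosterol and 8 of 9 genes from lanosterol to cholesterol fell, with median log2 fold changes of -0.43, -0.33 and -0.25. Control genes were split, with 2 higher, 2 lower and 2 not called, and so were transport and storage genes, with 2 higher and 3 lower. Added up, the 20 enzymes came to 3431 ± 93.6 CPM in vehicle cultures and to 2375 ± 169 CPM in treated ones. The cultures did not overlap for 26 of the 31 genes, 22 of them lower and 4 higher with ND-646. Over all genes 51.1% had no overlap, 24.1% as lower and 27% as higher. The cultures began as whole splenocytes, and in these bulk libraries fewer cells of a type and less RNA per cell cannot be told apart.

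**Figure D1:**
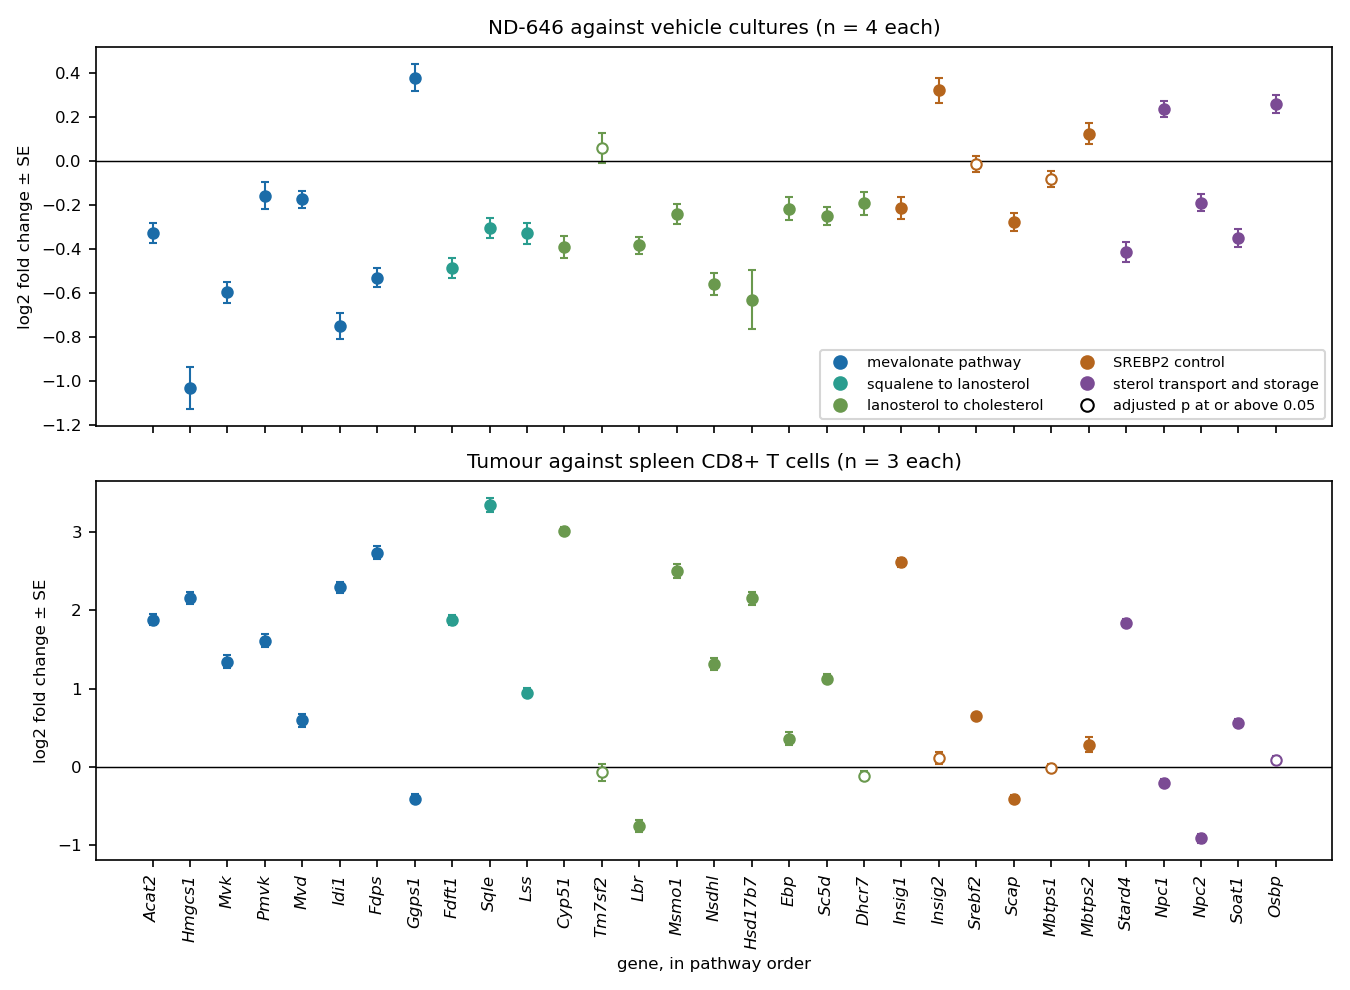
Log2 fold change of each of the 31 genes, in pathway order, with ND-646 against vehicle in 1 panel and tumour against spleen in the other. Bars on the points are 1 SE and filled points passed the test: 23 genes lie below 0 and pass with ND-646, and 21 lie above 0 and pass in tumour.

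Hmgcs1, the cytosolic HMG-CoA synthase, had the largest change with ND-646 among the 31. It stood at 884, 875, 826 and 836 CPM in vehicle and at 386, 471, 465 and 350 CPM with ND-646. Every treated library was well below every vehicle library, and treated libraries 1 and 4 were lower than 2 and 3. Hmgcs1 fell by 1.03 ± 0.09 on the log2 scale, 2.05-fold lower (edgeR adjusted p = 2.11e-05). Idi1, which interconverts isopentenyl and dimethylallyl diphosphate, was at 297, 305, 279 and 276 CPM in vehicle and 165, 187, 182 and 153 CPM with ND-646. The groups stood far apart, and the log2 fold change was -0.75 ± 0.06 (edgeR adjusted p = 8.88e-08). Fdps, farnesyl diphosphate synthase, was at 371, 379, 346 and 353 CPM in vehicle and 252, 247, 268 and 236 CPM with ND-646. It fell 1.44-fold with no overlap (log2 fold change -0.53 ± 0.04, edgeR adjusted p = 7.81e-09).

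Mvk, mevalonate kinase, went from 41.0 ± 1.78 to 27.1 ± 0.55 CPM, and its 4 treated libraries lay between 26.5 and 27.8 CPM (log2 fold change -0.60 ± 0.05). Acat2, the cytosolic thiolase, changed by -0.33 ± 0.05. Smaller falls were measured for the next enzymes along the pathway, phosphomevalonate kinase Pmvk at -0.16 ± 0.06 and mevalonate diphosphate decarboxylase Mvd at -0.17 ± 0.04. Pmvk overlapped between the groups and its call (edgeR adjusted p = 0.0435) was lost without any 1 of the vehicle libraries, with adjusted p between 0.0573 and 0.133, and without ND-646 library 4 (adjusted p = 0.113). Ggps1 makes geranylgeranyl diphosphate, used for protein prenylation, and so leaves the route to cholesterol. Among the 20 enzymes it alone rose on the TMM scale. It stood at 31.5, 34.1, 35.1 and 33.9 CPM in vehicle and at 45.9, 38.4, 42.8 and 48.0 CPM with ND-646. All 4 treated libraries were above all vehicle libraries (log2 fold change 0.38 ± 0.06, edgeR adjusted p = 5.6e-05).

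**Figure D2:**
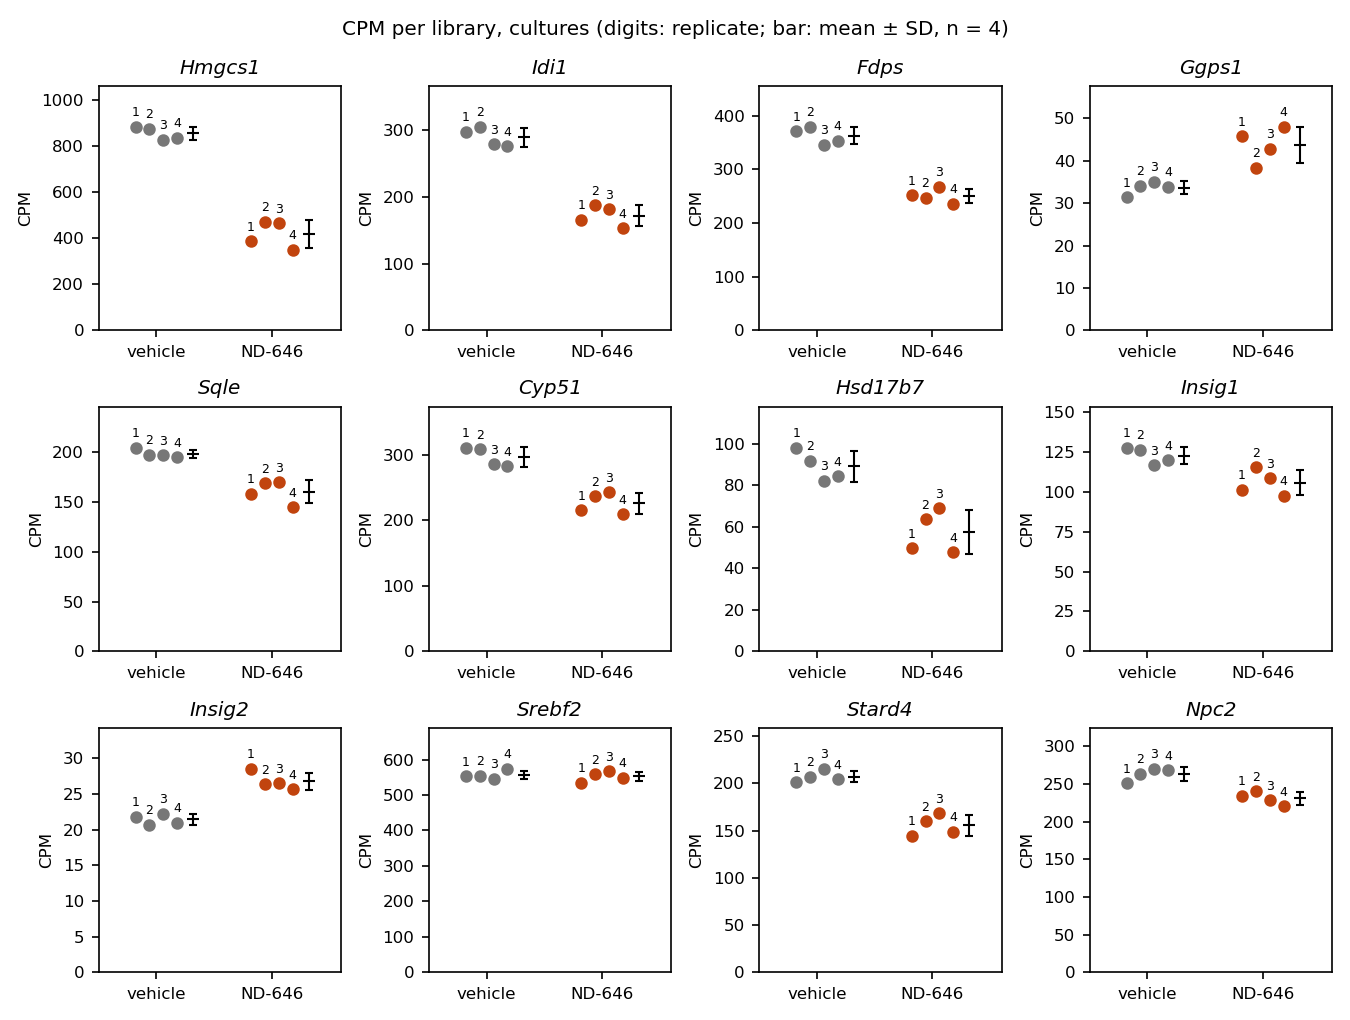
CPM of 12 of the genes in each vehicle and ND-646 library, a panel per gene, with a line at each group's mean. Hmgcs1 ran from 826 to 884 CPM in vehicle and from 350 to 471 CPM with ND-646, while Srebf2 overlapped between the groups.

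The 3 genes from farnesyl diphosphate to lanosterol all fell, Sqle and Lss by amounts close to the median of the enzymes and Fdft1 by more. Fdft1, squalene synthase, read 135, 138, 132 and 138 CPM in vehicle and 96.6, 104, 98.7 and 87.6 CPM with ND-646. It fell by 0.49 ± 0.04 on the log2 scale with no overlap (edgeR adjusted p = 4.47e-08). Sqle encodes squalene epoxidase, the first oxygen-dependent step. Its level was 204, 197, 197 and 195 CPM in vehicle and 158, 169, 170 and 144 CPM with ND-646, again without overlap (log2 fold change -0.31 ± 0.05, edgeR adjusted p = 1.56e-05). Lss, lanosterol synthase, changed by -0.33 ± 0.05, from 163 ± 2.42 to 130 ± 10.4 CPM.

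Among the genes that turn lanosterol into cholesterol, Hsd17b7, Nsdhl, Cyp51 and Lbr changed most. Hsd17b7, the 3-ketosteroid reductase that works with Nsdhl in removing methyl groups, was at 98.2, 91.8, 82.2 and 84.3 CPM in vehicle and 49.6, 63.7, 69.1 and 47.9 CPM with ND-646. The treated libraries were all lower but fell into a low pair, 1 and 4, and a higher pair, 2 and 3 (log2 fold change -0.63 ± 0.13, edgeR adjusted p = 0.00611). Nsdhl, the sterol dehydrogenase of the same reaction sequence, was tight in both groups: 37.7, 37.3, 38.3 and 36.7 CPM in vehicle, and 26.8, 25.2, 23.9 and 25.9 CPM with ND-646. It fell by 0.56 ± 0.05 on the log2 scale (edgeR adjusted p = 2.36e-08). Cyp51, lanosterol demethylase, read 310, 308, 286 and 282 CPM against 215, 236, 243 and 209 CPM, a log2 fold change of -0.39 ± 0.05 with no overlap. Lbr, a protein of the inner nuclear membrane that also has sterol C14-reductase activity, fell from 310 ± 3.85 to 237 ± 11.3 CPM. Tm7sf2, the other C14-reductase, did not pass the test (14.7 ± 0.52 and 15.3 ± 1.17 CPM, log2 fold change 0.06 ± 0.07, edgeR adjusted p = 0.484). It passed as higher when libraries were scaled to CD8 T cell markers (0.17, edgeR adjusted p = 0.0446). The remaining steps fell less: the C4-methyl oxidase Msmo1 by 0.24 ± 0.04, the sterol desaturase Sc5d by 0.25 ± 0.04, the sterol isomerase Ebp by 0.22 ± 0.05 and Dhcr7, which completes one branch of the route to cholesterol, by 0.19 ± 0.05 on the log2 scale. Dhcr7 overlapped between the groups.

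SREBP2's own message did not pass the test. Srebf2 read 554, 554, 546 and 574 CPM in vehicle and 535, 558, 567 and 549 CPM with ND-646, overlapping groups with a log2 fold change of -0.01 ± 0.04 (edgeR adjusted p = 0.787), a sign that changed with the scaling. The 2 INSIG genes, both encoding anchors of SCAP in the endoplasmic reticulum, went opposite ways. Insig1, itself a well-known SREBP target, fell from 128, 126, 117 and 120 CPM to 101, 115, 109 and 97.5 CPM, with no overlap (log2 fold change -0.21 ± 0.05, edgeR adjusted p = 0.00116). Insig2 rose from 21.8, 20.7, 22.2 and 21.0 CPM to 28.5, 26.3, 26.5 and 25.7 CPM, also with no overlap (log2 fold change 0.32 ± 0.06, edgeR adjusted p = 7.4e-05). Scap, the escort of SREBP2, fell from 109 ± 3.24 to 89.7 ± 3.67 CPM (-0.28 ± 0.04). The site-1 protease gene Mbtps1 did not pass (log2 fold change -0.08 ± 0.04, edgeR adjusted p = 0.059), although its groups did not overlap, and it passed with DESeq2 (adjusted p = 0.0366). The site-2 protease gene Mbtps2 rose by 0.13 ± 0.05 with overlapping groups (edgeR adjusted p = 0.0279), and this call was lost without any 1 of 6 libraries (ND-646 2, 3 or 4, or vehicle 1, 2 or 4) and with DESeq2 (adjusted p = 0.0835).

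Transport and storage genes were mixed. Stard4, a soluble carrier of cholesterol and a known SREBP2 target, fell as the enzymes did, from 201, 207, 216 and 205 CPM to 145, 160, 168 and 149 CPM (log2 fold change -0.41 ± 0.04, edgeR adjusted p = 3.53e-07). Soat1, which esterifies cholesterol for storage, fell from 59.1 ± 1.01 to 46.3 ± 1.17 CPM and by 0.35 ± 0.04 on the log2 scale. Both groups of Stard4 and of Soat1 stood apart. NPC1 and NPC2 together pass cholesterol out of late endosomes and lysosomes, and their genes moved in opposite directions. Npc1 rose from 84.0, 85.0, 84.2 and 84.5 CPM to 94.9, 101, 103 and 98.5 CPM (log2 fold change 0.24 ± 0.04, edgeR adjusted p = 2.68e-05), while Npc2 fell from 263 ± 8.77 to 231 ± 8.39 CPM (-0.19 ± 0.04). Osbp, an exchanger of cholesterol and phosphatidylinositol 4-phosphate at the Golgi, rose from 97.2, 93.1, 103 and 101 CPM to 122, 118, 112 and 120 CPM (log2 fold change 0.26 ± 0.04).

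The ND-646 libraries tended to pair for these genes. Libraries 1 and 4 were both below 2 and 3 in 18 of the 31 genes and in 13 of the 20 enzymes, and both above them in 5 and 4. Of all 14251 genes tested, 26.3% were lower and 24.8% higher in libraries 1 and 4 in the same sense. Without libraries 1 and 4, 5 of the 31 rose and 23 fell with a median log2 fold change of -0.24. Without libraries 2 and 3, 4 rose and 23 fell with a median of -0.31. What separates these libraries was not tested.

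Other lists moved in the same cultures, and their counts stand beside 29.8% of all genes called higher and 26.5% called lower. All 30 cell cycle genes fell with a median log2 fold change of -0.98, and their summed level went from between 5085 and 5360 CPM to between 2847 and 3493 CPM. Top2a, their most abundant gene, was at 700 ± 31.3 CPM (vehicle) and 393 ± 49.4 CPM (ND-646). Of 16 CD8 T cell markers 8 fell and 4 rose, and the sum went from between 7144 and 7379 to between 6657 and 6757 CPM, with Thy1 at 1568 and 1142 CPM. NK cell markers fell in 4 of 5 tested cases, with sums of 46.5 to 51.4 and 15.1 to 16.8 CPM, and Eomes, which T cells also express, at 23.8 and 8.96 CPM. The myeloid list (macrophage, monocyte and neutrophil markers) summed to between 17.97 and 20.1 and between 5.73 and 7.45 CPM, with 3 of 4 tested lower and Cd68 at 13.6 and 4.41 CPM. Of the 14 markers in that list C1qc, Csf3r, S100a8 and S100a9 were at 0 in vehicle, and these and C1qa and C1qb were at 0 with ND-646. B cell markers fell in 3 and rose in 1 of 5 tested cases and summed to between 114 and 130 and between 148 and 173 CPM, nearly all of it Ighm (115 and 162 CPM). Fibroblast markers summed to at most 12.0 CPM in any culture and the endothelial list, mostly Pecam1, to between 34.6 and 41.0 and between 25.5 and 28.5 CPM. The part of these in the fall of the cholesterol genes was not tested. Scaled to the CD8 T cell markers, the median of all genes moved by 0.107 on the log2 scale and 70.2% of called genes were higher (6039 higher, 2568 lower, against 4247 and 3781). Of the 31 genes 17 then fell and 7 rose, with Mvd, Pmvk, Ebp, Dhcr7, Insig1 and Npc2 no longer passing. Srebf2 (log2 fold change 0.094) and Tm7sf2 (0.17) then passed as higher (edgeR adjusted p = 0.0341 and 0.0446).

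Further genes of the pathway came from 4 lists that exclude the 31, and their counts stand beside the 29.8% of all genes called higher and 26.5% called lower. Of 13 other SREBP regulators and targets 7 rose and 2 fell, with a median log2 fold change of 0.16. The 2 that fell, named after their values were seen, were Acly (-0.22 ± 0.04) and Acss2 (-0.24 ± 0.06), both enzymes that make acetyl-CoA and neither overlapping between the groups. Rnf145, a ubiquitin ligase of the endoplasmic reticulum, rose from 95.7 ± 1.2 to 153 ± 3.33 CPM (0.68 ± 0.03, edgeR adjusted p = 1.59e-11). Srebf1, which encodes the SREBP1 forms that drive fatty acid synthesis, rose from 154 ± 4.64 to 247 ± 12.1 CPM (edgeR adjusted p = 1.41e-10). The list of LXR targets and oxysterol enzymes, tied to oxidised sterols, also holds the receptor genes Nr1h2 and Nr1h3. Its genes rose in 7 of 9 tested cases of 11 and fell in none, with a median of 0.78. Of its enzyme genes, Ch25h and Cyp7b1 were at 0 in vehicle and Cyp27a1 reached at most 0.737 CPM in a culture. The sterol exporter Abcg1 was at 14.7 ± 0.78 CPM in vehicle and 75.3 ± 5.29 CPM with ND-646 (log2 fold change 2.36). Mylip, a ubiquitin ligase for lipoprotein receptors, was at 3.50 ± 0.245 and 15.6 ± 0.309 CPM (2.16). Other sterol transport genes rose in 5 and fell in 3 of 12 cases, among them Osbpl2 (0.67) and Osbpl3 (-0.56), members of the oxysterol-binding protein family. Isoprenoid branch genes, which use the farnesyl and geranylgeranyl products, rose in 4 and fell in 2 of 13 tested cases of 14, with Chm at 0.30 and Rabggta at -0.31, both of Rab prenylation.

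Tumour CD8+ T cell samples held more messenger RNA of most of the same enzymes than spleen samples. Of the 31 genes 21 rose, 5 fell and 5 did not pass, beside 83.8% of 15042 genes tested that passed, 43.6% as higher and 40.2% as lower. Among the enzymes 16 rose, 2 fell and 2 did not pass. The median log2 fold change of the 31 was 0.95, and their range -0.92 to 3.35, beside a median of 0.0277 over all genes tested. Medians by role were 1.75 for the mevalonate genes, 1.88 from farnesyl diphosphate to lanosterol, 1.13 from lanosterol to cholesterol, 0.20 for control genes and 0.09 for transport and storage. Summed over the 20 enzymes, the spleen level was 772 ± 10.5 CPM and the tumour level 1899 ± 63.5 CPM. The groups did not overlap for 28 of the 31 genes, 22 of them higher and 6 lower in tumour. Over all genes 86.2% had no overlap, 44.6% as higher and 41.6% as lower.

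The tumour values stand beside a difference in what the samples held. Counts per list are to be read beside 43.6% of all genes called higher and 40.2% called lower. Of 19 fibroblast and fibrosarcoma markers 18 were tested and all 18 rose (median log2 fold change 11), with spleen Col3a1 at 1.47 ± 2.16 CPM, tumour Col3a1 at 3083 ± 488 CPM and Lum at 0 in spleen. All 16 CD8 T cell markers fell (median -0.97), Ptprc from 2475 to 1091 CPM. All 30 cell cycle genes rose (median 3.11), their sum from between 955 and 1159 to between 4508 and 4890 CPM and Top2a from 47.3 to 474 CPM. The myeloid list had 7 higher among 9 tested of 14 and summed to between 32.1 and 47.8 CPM in tumour against 7.54 to 9.52 CPM, with Cd14, C1qa, Fcgr1 and S100a8 at 0 in spleen. B cell markers fell in 3 and rose in 1 of 4 tested cases and summed to between 709 and 742 CPM in spleen and 90.2 to 99.7 CPM in tumour, mostly Ighm. NK cell markers rose in 5 of 6 tested cases (median log2 fold change 2.67), while their sum, mostly Eomes (103 and 35.9 CPM), was between 106 and 115 CPM in spleen and between 83.8 and 96.7 CPM in tumour. Endothelial markers also rose in 5 of 6 tested cases (median 4.7), while their sum, mostly Pecam1 (166 and 27.0 CPM), went from between 161 and 171 to between 52.1 and 58.2 CPM. In either experiment, a gene near 0 in 1 group could pass the filter on low counts only through the other group. The direction of such genes, as of most fibroblast markers here, was therefore largely fixed by the filter. The part of each of these lists in the values of the cholesterol genes was not tested. A change within T cells and a change in the mix of cells cannot be told apart here. Scaled to the CD8 T cell markers instead of to the bulk of genes, the median of all genes moved by 1.03 on the log2 scale, 86.2% of called genes were higher (10682 higher, 1706 lower, against 6551 and 6051), and 30 of the 31 genes rose with none lower.

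**Figure D3:**
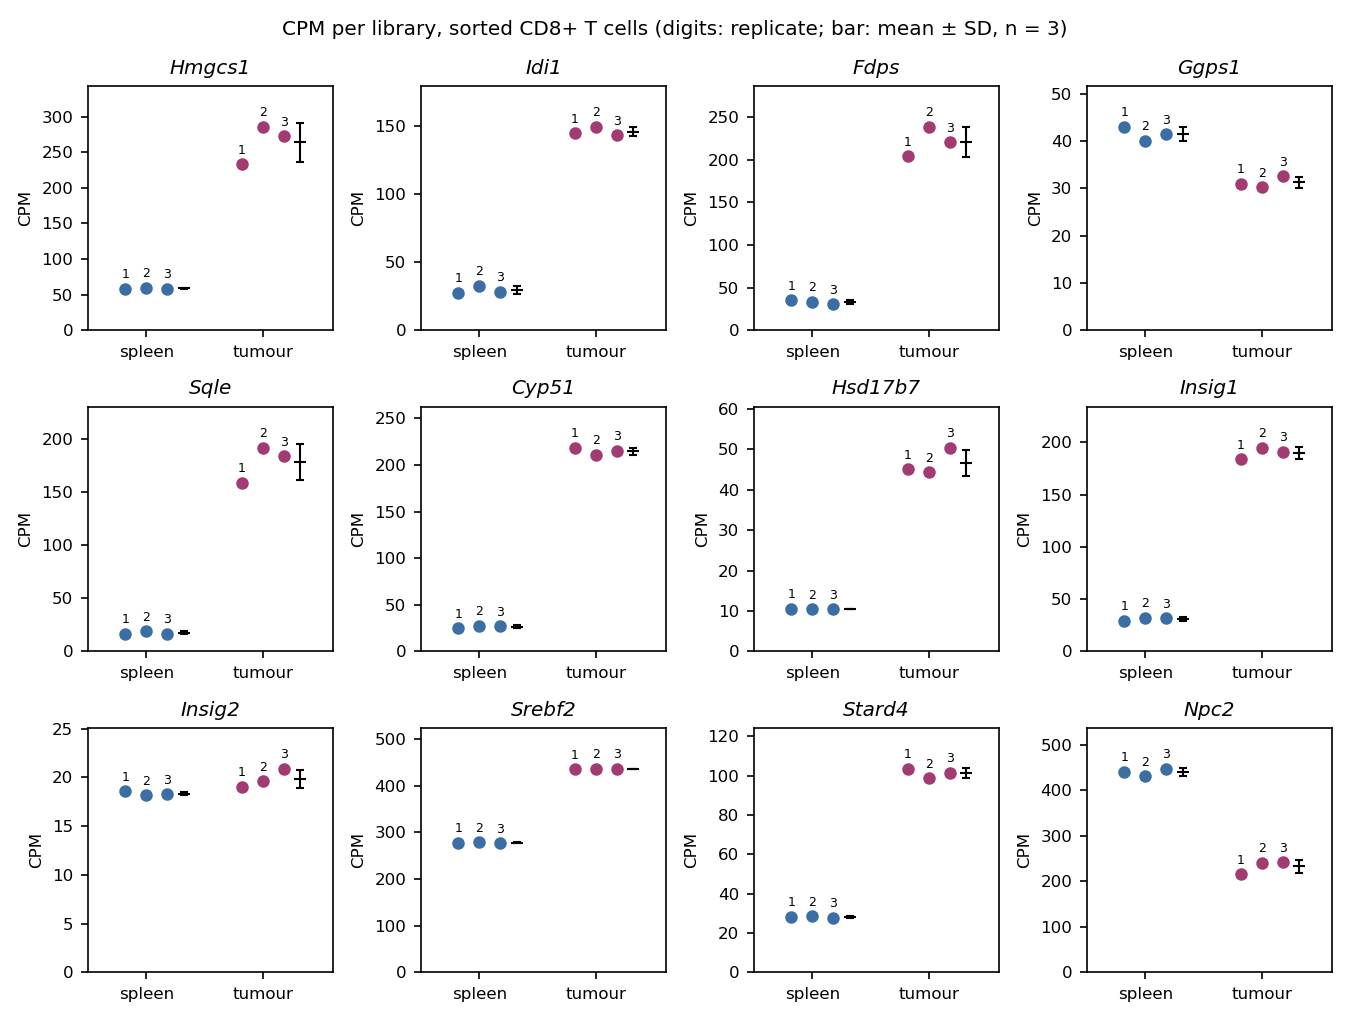
CPM of 12 of the genes in each spleen and tumour library, a panel per gene, with a line at each group's mean. Sqle ran from 16.6 to 18.98 CPM in spleen and from 159 to 192 CPM in tumour, while Npc2 was lower in all 3 tumour libraries on this scale and higher by 0.13 on the log2 scale when scaled to CD8 T cell markers.

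Sqle had the largest fold increase of the 31. It stood at 16.8, 18.98 and 16.6 CPM in spleen and at 159, 192 and 184 CPM in tumour. The groups were far apart, and the rise was 10.2-fold (log2 fold change 3.35 ± 0.09, edgeR adjusted p = 2.89e-09). Cyp51, whose promoter is shown above, was at 25.1, 27.7 and 26.8 CPM in spleen and 219, 211 and 215 CPM in tumour, 8.10-fold higher with little spread in either group (log2 fold change 3.02 ± 0.05, edgeR adjusted p = 8.24e-10). Fdft1 rose from 19.2, 19.8 and 19.4 CPM to 68.4, 71.95 and 74.3 CPM (1.88 ± 0.06). The opposite strand at Fdft1 carries Ctsb, a cathepsin gene, and the exons overlap by 774 bases. Ctsb had means of 124 CPM (spleen) and 413 CPM (tumour) on plain library totals, and whether the counting used strand is not given in the sources used here. Lss rose least of these, from 29.7 ± 0.93 to 57.3 ± 2.99 CPM (0.95 ± 0.06).

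Of the mevalonate genes, Fdps rose most. It read 35.3, 33.4 and 30.4 CPM in spleen and 204, 239 and 220 CPM in tumour, 6.69-fold higher with no overlap (log2 fold change 2.74 ± 0.08, edgeR adjusted p = 3.61e-09). Idi1 was at 27.6, 32.9 and 28.5 CPM in spleen and 145, 150 and 143 CPM in tumour (2.30 ± 0.07). Hmgcs1 was at 58.3, 60.2 and 58.4 CPM in spleen and 233, 286 and 272 CPM in tumour, 4.47-fold higher (2.16 ± 0.08, edgeR adjusted p = 1.01e-08). In all 3 genes every tumour library was several times above every spleen library. Acat2 (1.88 ± 0.07), Pmvk (1.61 ± 0.08) and Mvk (1.34 ± 0.08) also rose, and Mvd rose least, by 0.59 ± 0.08 on the log2 scale. Ggps1 went the other way, from 43.1, 40.1 and 41.5 CPM to 30.99, 30.3 and 32.6 CPM with no overlap (log2 fold change -0.41 ± 0.06, edgeR adjusted p = 0.000155), a sign that turned to 0.62 under scaling to CD8 T cell markers.

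From lanosterol onward the members differed more among themselves. Msmo1 rose from 20.5, 21.2 and 20.6 CPM to 103, 126 and 125 CPM (log2 fold change 2.51 ± 0.09, edgeR adjusted p = 9.81e-09). Hsd17b7 rose from 10.6, 10.5 and 10.4 CPM to 45.1, 44.3 and 50.4 CPM (2.15 ± 0.08, edgeR adjusted p = 1.1e-08). The tumour libraries were far above the spleen libraries for both. Nsdhl rose by 1.32 ± 0.07, Sc5d by 1.13 ± 0.06 and Ebp by 0.36 ± 0.08 on the log2 scale. The last step measured, Dhcr7, was at 37.3 ± 0.389 and 34.4 ± 1.47 CPM and did not pass (log2 fold change -0.12 ± 0.06, edgeR adjusted p = 0.0905), although it passed as lower when at least 1 CPM was required in every library of a group (adjusted p = 0.0481) and turned to 0.91 under CD8 scaling. Nor did Tm7sf2 pass (9.34 ± 0.506 and 8.88 ± 0.278 CPM, edgeR adjusted p = 0.543). Lbr fell from 297, 278 and 284 CPM to 192, 159 and 158 CPM, and its log2 fold change became 0.27 under CD8 scaling.

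Of the 6 control genes 3 rose in tumour, 1 fell and 2 did not pass. Insig1 rose from 29.2, 32.1 and 31.9 CPM to 184, 195 and 191 CPM, 6.12-fold with a narrow spread (log2 fold change 2.61 ± 0.06, edgeR adjusted p = 1.11e-09). Srebf2 was at 278, 279 and 277 CPM in spleen and 435, 437 and 436 CPM in tumour, 1.57-fold higher (0.65 ± 0.04, edgeR adjusted p = 4.68e-07). Each group of Srebf2 spanned only a few CPM, and the groups were far apart. Insig2 (18.3 ± 0.196 and 19.8 ± 0.953 CPM, edgeR adjusted p = 0.19) and Mbtps1 (182 ± 4.48 and 179 ± 7.38 CPM, edgeR adjusted p = 0.748) did not pass. Insig2 passed without tumour library 1 (edgeR adjusted p = 0.049). Scap fell from 123, 122 and 121 CPM to 96.0, 84.7 and 93.6 CPM (-0.41 ± 0.06, edgeR adjusted p = 7.58e-05), and turned to 0.61 under CD8 scaling. Mbtps2 rose by 0.28 ± 0.10 with overlapping groups (edgeR adjusted p = 0.0218), a call lost without spleen library 1 or 2 or tumour library 3 (adjusted p = 0.0636, 0.0681 and 0.066). Yy2 shares 2867 bases of exon with Mbtps2 on the same strand.

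Among transport and storage genes Stard4 again followed the enzymes, from 28.3, 28.5 and 27.8 CPM to 104, 98.6 and 101 CPM, 3.59-fold higher with no overlap (log2 fold change 1.84 ± 0.05, edgeR adjusted p = 2.78e-09). Soat1 rose from 46.9, 47.3 and 47.2 CPM to 66.8, 68.8 and 73.1 CPM (0.56 ± 0.05). Npc2 fell from 441, 430 and 447 CPM to 216, 241 and 242 CPM (-0.92 ± 0.06) and Npc1 from 64.1 ± 1.17 to 55.6 ± 2.18 CPM (-0.20 ± 0.05, edgeR adjusted p = 0.0042). Under CD8 scaling the log2 fold changes became 0.13 for Npc2 (adjusted p = 0.386) and 0.83 for Npc1, and with DESeq2 Npc1 was not called (adjusted p = 0.0529). Osbp did not pass (0.09 ± 0.05, edgeR adjusted p = 0.109) but passed without tumour library 2 or 3 (adjusted p = 0.0209 and 0.0395) and with DESeq2 (adjusted p = 0.0161).

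Counts for the other pathway lists in tumour stand beside the 43.6% of all genes called higher and 40.2% called lower. Other SREBP regulators and targets rose in 5 and fell in 5 of 13 cases (median log2 fold change 0.11). Acss2, the acetyl-CoA synthetase of the cytosol and nucleus, went from 78.6 to 15.6 CPM (-2.33, edgeR adjusted p = 7.86e-09), and Pgrmc1, a haem-binding membrane protein, from 35.5 to 98.2 CPM (1.47, edgeR adjusted p = 1.1e-08). LXR targets and oxysterol enzymes rose in 4 and fell in 6 of 11 cases (median -0.45), the desaturase gene Scd2 rising from 85.9 to 522 CPM and the sterol exporter Abca1 falling from 35.7 to 7.48 CPM. Other sterol transport genes rose in 2 and fell in 8 of 12 cases (median -0.40), with Gramd1a, an endoplasmic reticulum protein that takes up plasma membrane cholesterol, going from 865 to 304 CPM. Lima1, an actin-binding protein, had a spleen mean of 0.571 CPM and a tumour mean of 216 CPM. Isoprenoid branch genes rose in 5 and fell in 5 of 13 cases (median -0.16), and the prenyltransferase subunits Rabggta (-1.54) and Fntb (-1.35) both fell.

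The experiments share no sample, so the genes can be set side by side. Of the 31 genes 19 fell with ND-646 and rose in tumour, and 14.6% of the 13261 genes tested in both did so. Those 19 included 16 of the 20 enzymes, with Insig1, Stard4 and Soat1. Ggps1 and Npc1 rose with ND-646 and fell in tumour on the TMM scale, as did 14.9% of all genes. Lbr, Scap and Npc2 fell in both (8.3% of all genes), though not in tumour under CD8 scaling, and Mbtps2 rose in both (11.5%). Across the 31 genes the log2 fold changes had Pearson r = -0.58 and Spearman rho = -0.59, beside -0.131 and -0.136 across all 13261 genes. These are correlations across genes, which are not independent replicates, and they carry no test. The orders differed: Hmgcs1 had the largest fall with ND-646 and Sqle, with the largest rise in tumour, fell by 0.31 with ND-646, close to the median of the enzymes (-0.33).

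**Figure D4:**
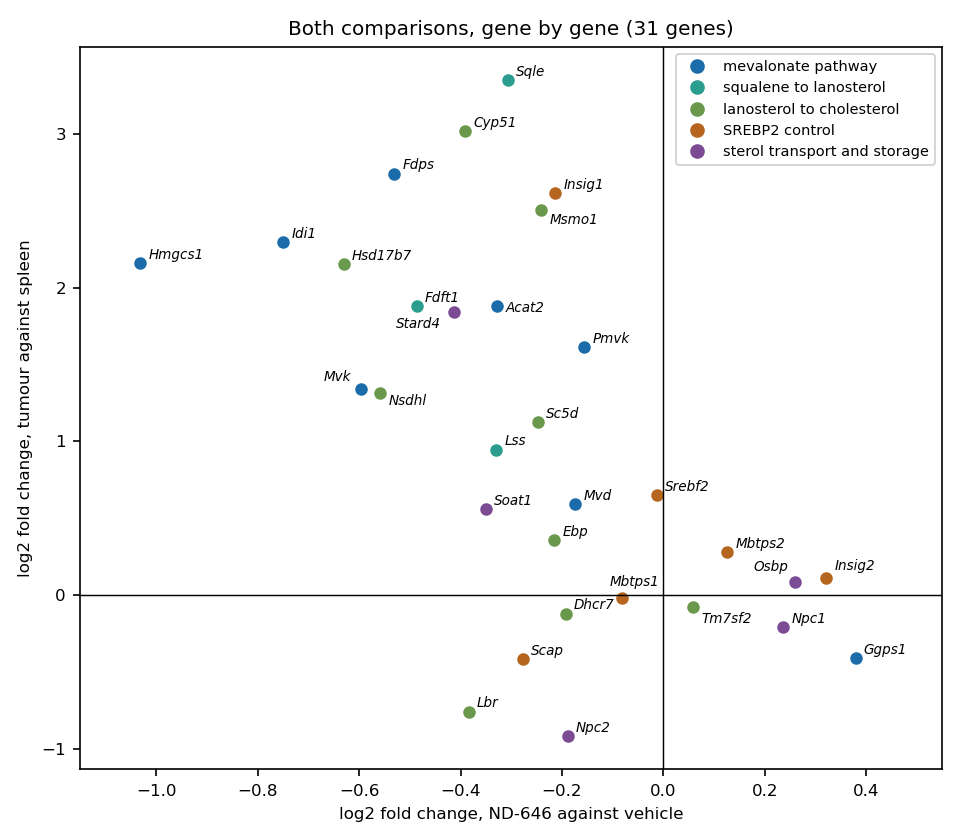
Log2 fold change in tumour against spleen on the vertical axis and with ND-646 against vehicle on the horizontal axis. Each of the 31 genes is a point, coloured by role. Most enzymes lie at upper left, Ggps1 at lower right on this scale, and Hmgcs1 farthest left at -1.03.

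Set side by side without a test, since the tables were normalized separately, the group means of the enzymes were mostly lowest in spleen and highest in vehicle cultures. The experiments also differ in mice, in culture with peptide and interleukin-2, and in the mix of cells. A difference between cultures and sorted samples therefore cannot be told apart from a difference between experiments. For 21 of the 31 genes, and 15 of the 20 enzymes, the lowest of the 4 group means was in spleen, as for 37.1% of the 13261 genes tested in both. The highest was in vehicle cultures for 19 genes and 17 enzymes, and for 19.1% of all genes. The full order spleen, tumour, ND-646, vehicle held for 14 genes, 12 of them enzymes, and for 7.1% of all genes. The ratio of vehicle to spleen had a median of 4.14 over the enzymes, 1.23 over the control genes and 1.25 over transport and storage, and reached 14.5 for Hmgcs1, 11.4 for Sqle, 11.2 for Cyp51 and 11.0 for Fdps. ND-646 cultures stood below vehicle and above spleen for most enzymes, as with Hmgcs1 at 855 ± 28.1, 418 ± 59.8, 264 ± 27.1 and 59.0 ± 1.05 CPM in vehicle, ND-646, tumour and spleen. The enzymes for which they did not were Ggps1, Tm7sf2, Lbr and Ebp. Sqle, Mvk and Nsdhl were among the exceptions to the full order only. Their tumour means (178, 30.6 and 37.2 CPM) were above those of ND-646 (160, 27.1 and 25.5 CPM). Insig1 also broke the full order, being highest in tumour at 190 ± 5.58 CPM.

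Levels can be compared between genes only per length, and were divided by the length of the exons of each gene's protein-coding transcripts. In vehicle the highest levels per kilobase were those of Fdps at 250 and Hmgcs1 at 246 CPM per kb, followed by Srebf2 at 110 and Idi1 at 95.5, and the lowest was Mbtps2 at 4.35. Spleen had another order, with Npc2 at 133, Lbr at 81.5, Srebf2 at 54.7 and Mbtps1 at 41.8 CPM per kb highest and Hsd17b7 at 2.08 lowest. In tumour Fdps led at 152, ahead of Srebf2 at 85.9 and Hmgcs1 at 75.8 CPM per kb. Fdps and Hmgcs1 ranked first and second in both cultures, and Fdps sixth and Hmgcs1 ninth in spleen. Srebf2 was among the 3 highest in every group.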

How the data were processed

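RNA was measured as sequenced messenger RNA in 14 libraries. The authors deposited 1 table of estimated counts per gene symbol for each experiment. STAR, Salmon and DESeq2 are named in the submitters' processing notes, without versions or roles. The authors' build, annotation and use of strand were not given in the sources used here. Because column totals differ, the authors' estimated counts were treated as raw. Of their values, 9.16% and 9.15% were not whole (tolerance 1e-06), and all were rounded. Exon overlaps and lengths came from GENCODE M21 and promoters from RefSeq GRCm38.p6, matched by symbol.

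Each experiment was fitted on its own with edgeR 4.0.16 in R 4.3.3 (filterByExpr, TMM, trended dispersion, robust glmQLFit and glmQLFTest), with p adjusted by Benjamini-Hochberg over all genes tested and called under 0.05. The scripts were tested on simulated data. Alternatives were DESeq2 1.42.0, limma-voom 3.58.1, other filters and scalings, a minimum change of 1.5-fold, a replicate block and leaving out each library. Leaving out ND-646 libraries 1 and 4, or 2 and 3, was chosen after seeing the data. The genes and lists were chosen with earlier results of these data known. The genes named are all 31, of each other pathway list the 2 with the smallest p, and of each marker list the most abundant. Genes at 0 and pairs of libraries were named after their values were seen. Library totals were 19.6 to 33.8 M counts (M, 1e+06), so that 3 counts, the most that a count of 0 allows, are 0.0878 to 0.154 CPM, for counting error only. All genes named as members lie far above this. Of the 31 genes, 6 share exon bases with another protein-coding gene: Fdft1, Cyp51 and Npc1 on the opposite strand, and Fdps, Mbtps2 and Tm7sf2 on the same strand, and their counts are less certain.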

Additional observations from a re-analysis of the deposited data

Results flagged for a closer look

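In vehicle library 1, Tm7sf2 stood apart from the other libraries of its group: it was at 13.9 CPM, and the others lay between 14.8 and 15.0 CPM. The gap was 0.852 of the group's whole range, above Dixon's 95% critical value for 4 libraries. It was the 1 such value among 62 groups of 4 tested, and chance flags about 1 in 20.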

How the results depend on the processing

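With a replicate block, which treats equal replicate numbers as pairs, 5 of the 31 genes rose and 23 fell with ND-646 and 21 rose and 5 fell in tumour, the counts without the block, and no call among them changed. Over all genes the block gave 4163 higher and 3701 lower with ND-646, and 6504 and 5988 in tumour. Deviations of libraries with the same number had correlations of -0.121 to 0.0659 with ND-646 and -0.0463 to -0.0193 in tumour, and not every library correlated best with its own number. Leaving out 1 library at a time, 4 to 5 of the 31 rose and 22 to 23 fell with ND-646 (median log2 fold change -0.274 to -0.235), and 20 to 22 rose and 5 fell in tumour (median 0.945 to 1.03).

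A minimum change of 1.5-fold left 489 genes higher and 703 lower with ND-646, of the 31 genes 0 higher and 2 lower, Hmgcs1 and Idi1. In tumour it left 4718 genes higher and 3722 lower, of the 31 genes 17 higher and 2 lower. Scaling to CD8 T cell markers gave medians of the 31 of -0.141 with ND-646 and 1.99 in tumour, and in tumour 10682 genes higher and 1706 lower, with 0 of the 31 lower. It ended the ND-646 calls of Mvd, Pmvk, Ebp, Dhcr7, Insig1 and Npc2 (adjusted p = 0.149, 0.484, 0.083, 0.174, 0.0624 and 0.0652). Srebf2 and Tm7sf2 were called higher with ND-646 under it (edgeR adjusted p = 0.0341 and 0.0446). In tumour it turned the log2 fold changes of Dhcr7 to 0.91, Ggps1 to 0.62, Lbr to 0.27, Mbtps1 to 1.02, Npc1 to 0.83, Npc2 to 0.13, Scap to 0.61 and Tm7sf2 to 0.96.

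Signs of values near 0 also turned. Mbtps1 in tumour was 0.048 with DESeq2, 0.048 with DESeq2 size factors in edgeR, 0.0027 with no filter, and between -0.015 and 0.057 when 1 library was left out. With ND-646 it was 0.025 under CD8 scaling. Srebf2 with ND-646 was 0.018 on library totals, 0.094 under CD8 scaling (adjusted p = 0.0341) and between -0.029 and 0.0021 when 1 library was left out. Tm7sf2 with ND-646 was -0.052 without ND-646 libraries 1 and 4. The cause was not tested.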
